A study of Mus musculus with 18 samples.

Results

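RNA of mandibular bone was compared with RNA of mandibular condylar cartilage in *Fgfr2*+/+ mouse embryos, the unaffected littermates of a study of the Fgfr2 S252W substitution of Apert syndrome. The *Fgfr2*+/+ libraries of these tissues were taken by their labels, 3 of bone and 3 of condylar cartilage, which made 6 of the 18 libraries of the series. All came from female C57BL/6 embryos at E16.5 that carried 2 unaltered copies of *Fgfr2* and received no treatment. Each library held 1 tissue of 1 embryo, cut by laser capture from sections of the head, and the RNA was amplified before the libraries were made. The paper names 3 *Fgfr2*+/+ embryos for the capture and does not name condylar cartilage. Both tissues may come from the same embryos, but no label says that equal replicate numbers mark 1 embryo. The other libraries used here are 3 of bone and 3 of condylar cartilage from *Fgfr2*+/S252W embryos of the same age, sex and strain, which carry 1 mutant copy of the gene.

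Most of the mandible forms by intramembranous ossification, in which mesenchymal cells become osteoblasts without a cartilage model. Osteoblasts lay down type I collagen and mineralize it, vessels and osteoclasts enter early, and the bone is remodelled as it forms. The condyle carries a secondary cartilage that arises next to this bone from periosteum-like progenitors. Its chondrocytes make type II collagen and aggrecan, mature quickly to hypertrophic cells with type X collagen, and are later replaced by bone.

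A total of 12581 genes exceeded 1 FPKM (fragments per kilobase of exon, scaled to the library size) in at least 50% of the 6 libraries and were tested. Of these, 5442 differed between the tissues (43.3%; limma, Benjamini-Hochberg adjusted p below 0.05), with 2751 higher in bone (21.9%) and 2691 higher in condylar cartilage (21.4%). The sides were of like size and were unlike in content. The strongest differences in bone lay in osteoclast and blood cell genes, and those in condylar cartilage in matrix genes of chondrocytes. *Runx2* mRNA did not separate the tissues. A gene could enter the test through 1 tissue alone, and 751 tested genes (5.97%) exceeded 1 FPKM in bone libraries only and 378 (3.0%) in condylar libraries only. Such genes were tested because they are high there, so a list's count of tested members is partly set by the filter and is a description. This also holds for lists where the number of such genes is not given.

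Some matrix genes of both tissues carried the core sequence read by RUNX factors before their start. The motif ACCACA, or TGTGGT on the other strand, was searched in the 250 bases upstream of each gene start in RefSeq (GRCm38.p6). It was present in 192 of 2016 promoters of genes higher in bone (9.52%), in 191 of 1965 promoters of genes higher in condylar cartilage (9.72%), and in 898 of 8799 promoters of all tested genes with an entry (10.2%). Of all 27025 promoters listed, 14.2% held it. Among the lists described later, the motif was present in 2 of 9 promoters of bone matrix genes, 0 of 5 of cartilage collagens, 4 of 11 of other cartilage matrix genes and 1 of 8 of osteoclast genes. The windows that follow are 150 bases long, with the motif in capitals, from 2 genes higher in bone (*Spp1*, *Bglap*) and 2 higher in condylar cartilage (*Hapln1*, *Matn1*), and show the same core on either side of the comparison. The *Spp1* window is chr5:104434923-104435072 on the plus strand, the *Bglap* window chr3:88384509-88384658 on the minus strand, the *Hapln1* window chr13:89540416-89540565 on the plus strand and the *Matn1* window chr4:130944191-130944340 on the plus strand.
Spp1: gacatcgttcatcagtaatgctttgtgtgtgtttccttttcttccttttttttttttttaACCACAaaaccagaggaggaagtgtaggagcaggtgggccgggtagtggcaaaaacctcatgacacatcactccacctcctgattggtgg
Bglap: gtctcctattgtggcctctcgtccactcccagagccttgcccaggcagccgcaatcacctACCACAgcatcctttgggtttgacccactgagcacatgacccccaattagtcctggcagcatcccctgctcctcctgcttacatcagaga
Hapln1: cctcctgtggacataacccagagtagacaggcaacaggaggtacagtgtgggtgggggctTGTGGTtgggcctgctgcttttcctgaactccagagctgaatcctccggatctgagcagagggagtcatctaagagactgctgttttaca
Matn1: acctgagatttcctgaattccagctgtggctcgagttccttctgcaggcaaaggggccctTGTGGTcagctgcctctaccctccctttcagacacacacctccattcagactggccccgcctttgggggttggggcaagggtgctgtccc
The motif lay 128 bases before the start of *Spp1*, 132 before that of *Bglap*, 160 before that of *Hapln1* and 134 before that of *Matn1*. A match is a description of the letters only, and the share with a match did not separate the sides.

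The libraries held 10308771 to 12623521 fragments assigned to genes. The biological coefficient of variation was 0.204 among the bone libraries and 0.242 among the condylar libraries (edgeR). Mitochondrial genes took 36.0%, 34.8% and 20.4% of the fragments in bone replicates 1 to 3 and between 19.4% and 23.6% in condylar cartilage. Gm42418, which overlaps ribosomal RNA, took 8.57% to 9.33% in bone and 12% to 20.1% in condylar cartilage. With library totals alone as the scale, the median of all genes moved from -0.01 to 0.16 on the log2 scale and 3210 genes were higher in bone against 1903, so that 62.8% of the called genes were higher in bone in place of 50.6%. Differences near 0 on the log2 scale are therefore given relative to the TMM (trimmed mean of M values) scale. The p-values measure the spread between the 3 libraries of a tissue, without pairing of the tissues by embryo.

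**Figure D1:**
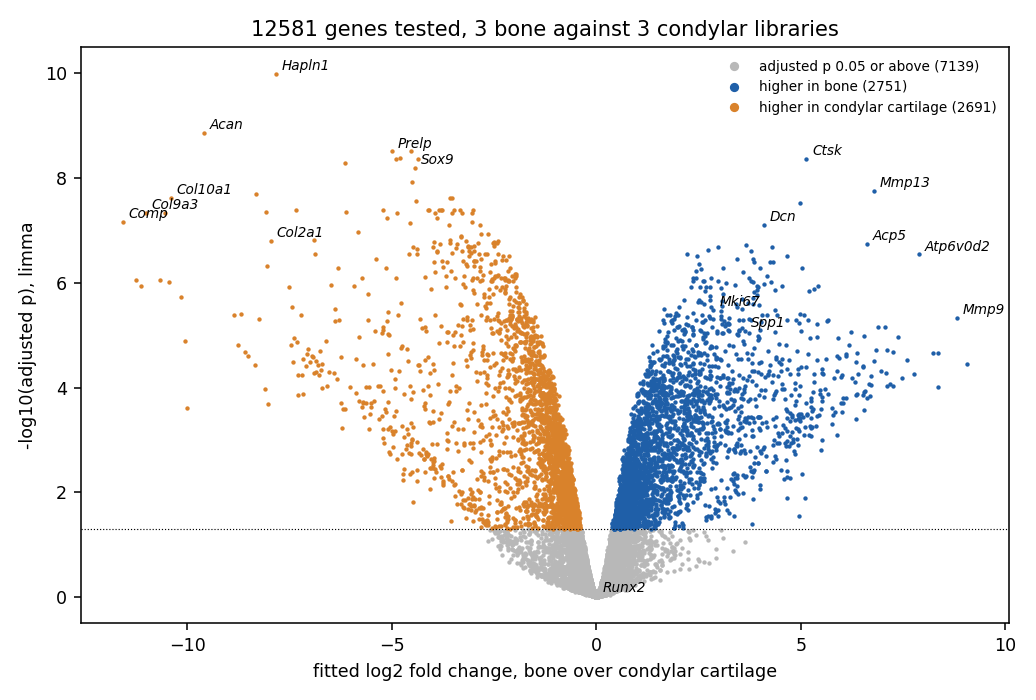
Each point is 1 of 12581 genes, with the fitted log2 difference (bone minus condylar cartilage) on the x axis and -log10 of the adjusted p on the y axis. The 2751 genes higher in bone and the 2691 higher in condylar cartilage are coloured, the dotted line is an adjusted p of 0.05, and genes with 0 fragments in 1 tissue stand at their fitted value, which is no bound. *Hapln1* sits highest.

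The differences were often large. Among the called genes the median absolute log2 difference was 1.29, and 3491 differed at least 2-fold. At least 4-fold differences were found in 951 genes on the bone side and 713 on the condylar side. The 3 bone libraries did not overlap the 3 condylar libraries in 6703 tested genes (53.3%) and in 5286 of the called genes. Levels are given as CPM, the fragments of a gene scaled to the TMM-normalized library size (normalized CPM), in replicates 1, 2 and 3, and all differences are bone minus condylar cartilage on the log2 scale, with the SE and adjusted p of limma.

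The labels were checked against defining markers. *Col1a1* (chr11:94936224-94953042), the main chain of the fibrillar collagen of bone, was at 14663, 9571 and 28493 normalized CPM in bone and 2684, 2354 and 6235 in condylar cartilage (log2 difference 2.20, SE 0.40, adjusted p = 0.000789). *Col2a1* (chr15:97975602-98004695), the main collagen of cartilage, was at 125, 45.2 and 214 in bone and 26255, 24749 and 29139 in condylar cartilage (-7.96, SE 0.46, adjusted p = 1.59e-07). Both markers lay on the side of their label in all 6 libraries. The bone markers were not absent from the condylar libraries, where *Ibsp*, *Sparc* and *Col1a1* remained among the abundant transcripts, whereas *Bglap* was at or near 0.

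Of the osteoblast transcription factors, 6 of 10 were higher in bone and 0 in condylar cartilage, beside 21.9% and 21.4% of all genes tested. The median log2 difference was 0.85 against -0.01 over all genes tested. Of the 10, 3 exceeded 1 FPKM in bone libraries only and were tested through bone alone. *Runx2* (chr17:44604001-44814797), which is required for osteoblast formation and for chondrocyte hypertrophy, was at 522, 449 and 582 normalized CPM in bone and 502, 486 and 543 in condylar cartilage. The tissues overlapped, and the difference was 0.01 (SE 0.15, adjusted p = 0.95). Its sign changed under other settings. *Sp7* (osterix), which acts after *Runx2*, was at 237, 236 and 379 in bone and 168, 166 and 297 in condylar cartilage, again with overlap (0.46, SE 0.24, adjusted p = 0.153). Without condylar replicate 3 its adjusted p was 0.0136.

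*Msx1* separated the tissues where *Runx2* did not. This homeobox factor of the developing jaw was at 30.1, 17.2 and 24.6 normalized CPM in bone and 0.364, 0.206 and 0.330 in condylar cartilage (6.09, SE 0.69, adjusted p = 2.5e-05). *Cbfb*, the partner subunit of RUNX proteins, was higher in bone by 0.89, and *Dlx5* by 0.73. In this list 4 members, *Runx2* and *Sp7* among them, did not pass, and of these *Dlx3* (0.80, adjusted p = 0.1) passed without condylar replicate 3 (0.00151).

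Bone matrix genes were higher in bone in 10 of 11 members, beside 21.9% of all genes tested, with a median of 2.20. Of the 11, 2 exceeded 1 FPKM in bone libraries only. *Spp1* (osteopontin, chr5:104435118-104441050), a phosphoprotein of bone matrix that osteoclasts bind, was at 2783, 3548 and 2781 normalized CPM in bone and 286, 119 and 418 in condylar cartilage (3.64, SE 0.36, adjusted p = 8.22e-06). *Bglap* (osteocalcin, chr3:88383501-88384433), made by mature osteoblasts, was at 6.38, 9.78 and 14.5 in bone and 0.0910, 0 and 0.110 in condylar cartilage. Its 401 fragments in bone stood against 2 in condylar cartilage, a ratio of 156 (95% exact counting interval 43.0 to 1294). *Bglap2* had 443 fragments in bone and 0 in condylar cartilage, at least 115-fold higher in bone, taking 3 fragments over the group as the floor. *Bglap* and *Bglap2* are near-identical neighbours and fragments that fit both were not counted, so their levels are uncertain. Intervals and floors cover counting error only.

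The matrix genes fell into strong and weak separators. *Omd*, a keratan sulfate proteoglycan of bone, differed by 4.93 and *Col1a2* by 2.28, without overlap. *Sparc*, a collagen-binding glycoprotein, was at 10380.2, 12915 and 18173 in bone and 6057, 6075 and 8480.1 in condylar cartilage (0.98, SE 0.23, adjusted p = 0.00384). *Ibsp* (bone sialoprotein), which nucleates mineral, was at 7893, 6016 and 8592 in bone and 3509, 2864 and 7008 in condylar cartilage, where replicate 3 lay within the range of bone. Its difference passed narrowly (0.84, SE 0.29, adjusted p = 0.035), did not pass with edgeR (adjusted p = 0.0933) or with 12 (0.119) or 18 libraries in the fit (0.313 and 0.293), and did not pass with bone replicate 1 or 3 or condylar replicate 1 or 2 left out. *Ifitm5*, a membrane protein of mineralizing osteoblasts, was at 249, 256 and 305 against 169, 163 and 266 and did not pass (0.47, adjusted p = 0.0662, and 0.00412 without condylar replicate 3).

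Levels compared between genes need the exon length. Per kilobase, *Ibsp* stood at 3627 normalized CPM in bone and 2157 in condylar cartilage, *Col1a2* at 3769.9 and 739.7, and *Col2a1* at 25.1 and 5231. In each condylar library *Ibsp* was above *Col1a1* (634 on average) and below *Col2a1* and *Sparc* (2987). It was below *Hapln1* (2029) in condylar replicates 1 and 2 and above it in replicate 3.

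**Figure D2:**
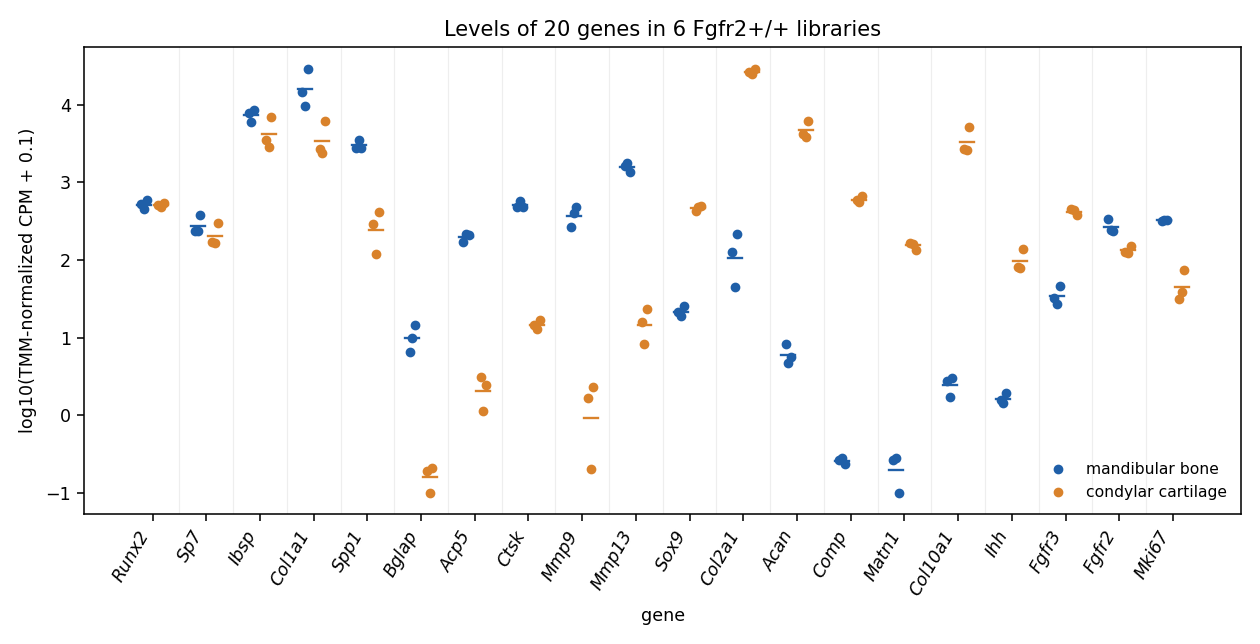
Normalized CPM (log10 scale, 0.1 added) of 20 genes in each of the 3 bone and 3 condylar libraries, with points for libraries and a line at the mean of the log values of each tissue. *Runx2* overlaps between the tissues, with all libraries between 449 and 582, while *Mmp9*, *Acp5* and *Ctsk* stand apart on the bone side and *Col2a1*, *Acan*, *Comp*, *Matn1* and *Col10a1* on the condylar side.

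Of the mineralization genes 7 of 10 were higher in bone and 1 in condylar cartilage, beside 21.9% and 21.4% of all genes tested. The median was 1.17, and 1 of the 10 exceeded 1 FPKM in bone libraries only. *Alpl*, the phosphatase that removes the mineralization inhibitor pyrophosphate, was at 567, 540.1 and 778 normalized CPM in bone and 261, 220.2 and 544 in condylar cartilage (0.98, SE 0.28, adjusted p = 0.0142), with condylar replicate 3 just above bone replicate 2. Without condylar replicate 1 its adjusted p was 0.0648, and without condylar replicate 2 it was 0.0741. With 12 libraries in the fit it was 0.0605, and with 18 it was 0.205 and 0.203. Both suppliers of pyrophosphate were higher in bone, *Enpp1* by 1.18 (SE 0.20) and the transporter *Ank* by 2.25 (SE 0.22). *Phospho1*, the phosphatase that releases phosphate inside matrix vesicles, was at 7.11, 9.95 and 15.7 in bone and 11.6, 15 and 19.7 in condylar cartilage and did not pass (-0.51, adjusted p = 0.196).

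*Smpd3*, the sphingomyelinase whose products feed Phospho1, was the mineralization gene on the condylar side. It was at 334, 277 and 418 normalized CPM in bone and 942, 823 and 870.4 in condylar cartilage (-1.38, SE 0.17, adjusted p = 4.39e-05). Without bone replicate 3, a second member of this list was higher in condylar cartilage.

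Osteocyte genes, which mark osteoblasts enclosed in matrix, were higher in bone in 4 of 5 tested members of 6, with a median of 2.41. The share of all genes tested was 21.9%, and 1 of the 5 exceeded 1 FPKM in bone libraries only. *Dmp1*, a phosphoprotein of the osteocyte matrix, was at 164, 111 and 235 normalized CPM in bone and 43.3, 14.6 and 23.8 in condylar cartilage (2.70, SE 0.35, adjusted p = 6.52e-05). *Phex*, an endopeptidase of phosphate control, was at 455, 405 and 667 against 78.5, 57.5 and 182 (2.41, SE 0.33, adjusted p = 0.000111). *Sost*, the secreted Wnt inhibitor of mature osteocytes, had 50, 32 and 102 fragments in bone and 7, 14 and 38 in condylar cartilage and did not pass (adjusted p = 0.0555). It passed without bone replicate 2 (0.0371) and without condylar replicate 3 (0.0179). *Fgf23* had at most 4 fragments in a library and was not tested.

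Among lists with more than 1 tested member, osteoclast genes gave the largest separation on the bone side, with a median of 5.13. Of the 15 members, 13 were higher in bone, beside 21.9% of all genes tested. Since 7 of the 15 exceeded 1 FPKM in bone libraries only, the count and the median are partly set by the filter. Osteoclasts are multinucleated cells of the blood lineage that dissolve mineral by acid and digest matrix. *Acp5*, their tartrate-resistant phosphatase, was at 168, 213 and 206 normalized CPM in bone and 3.00, 1.03 and 2.31 in condylar cartilage (6.60, SE 0.39, adjusted p = 1.84e-07). *Ctsk*, the collagen-cleaving protease, was at 474, 573 and 474 against 14.4, 12.6 and 16.5 (5.13, SE 0.18, adjusted p = 4.25e-09). No library of one tissue came near those of the other.

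The genes of resorption and fusion followed the same pattern. *Mmp9* (chr2:164940780-164955850), the gelatinase of osteoclasts, was at 264, 397 and 484 normalized CPM in bone and 1.55, 0.103 and 2.20 in condylar cartilage (8.81, SE 0.80, adjusted p = 4.61e-06). *Atp6v0d2*, a proton pump subunit, was higher in bone by 7.88 (SE 0.50). *Dcstamp*, which is needed for osteoclast fusion, had 856 fragments in bone and 1 in condylar cartilage, a ratio of 667 (counting interval 119 to 26369). *Tnfrsf11a*, the RANK receptor, differed by 4.37 and *Csf1r*, the receptor of the survival factor M-CSF, by 3.44.

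The members that did not pass were *Nfatc1* and *Clcn7* (0.72, adjusted p = 0.0536), a chloride transporter of the resorbing membrane. *Clcn7* passed without bone replicate 1 (0.00975) and without condylar replicate 3 (0.017). *Nfatc1*, the master factor of osteoclast formation that is also used by other cells, was at 87.7, 92.1 and 125 normalized CPM in bone and 81.4, 88.7 and 122 in condylar cartilage (0.07, adjusted p = 0.802). Of the 12 genes with the largest differences on the bone side that reached 10 normalized CPM, *Mmp9*, *Dcstamp*, *Atp6v0d2* and *Ocstamp* were on the osteoclast list. *Slc9b2*, a sodium/proton exchanger of osteoclasts, had 1106 fragments against 2, a ratio of 431 (119 to 3562), and *Ccr1*, a chemokine receptor, 644 against 3, a ratio of 167 (57.0 to 813). *Spi1* (PU.1), the factor of the myeloid lineage, had 662 against 3, a ratio of 172 (58.6 to 836). *Clec12a*, a myeloid lectin, had 1042 against 0, at least 271-fold higher in bone. The same 12 genes included *Clec4a2*, another myeloid lectin, *Bglap2*, *Nyap2* and *Ambn*.

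Genes of other cells that enter bone moved with the bone side. Over all 10 macrophage genes, the summed level was 146 to 174 normalized CPM in bone and 5.55 to 12.5 in condylar cartilage. The 10 endothelial genes summed to 301 to 408 against 16.3 to 39.2, and the red blood cell genes to 1557 to 1865 against 40.3 to 278. All tested members passed on the bone side, 7 macrophage, 9 endothelial and 9 red blood cell genes. Of these, 5, 6 and 2 exceeded 1 FPKM in no condylar library and were tested through bone alone, so these counts are largely fixed by the filter for macrophage and endothelial genes and nothing is read from them.

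*Pecam1*, an adhesion molecule of endothelial junctions, stood at 35.6, 45.9 and 51.5 normalized CPM in bone and 5.0, 3.70 and 7.04 in condylar cartilage. *Emcn*, a sialomucin of capillaries, was at 34.8, 39.7 and 34.2 against 0.910, 0.308 and 1.87 (5.39, SE 0.51, adjusted p = 6.22e-06). *Cd68*, a lysosomal protein of macrophages and osteoclasts, was at 49.4, 81.9 and 86.9 against 2.46, 1.54 and 2.20. *Hbb-bs*, an adult beta globin, was at 955, 1156 and 979.8 against 12.4, 42.7 and 139, with its paralogs not counted where fragments fit several of them. In each of these genes the lowest bone library lay well above the highest condylar library. In bulk tissue, fewer cells of a type and less RNA of a gene per cell cannot be told apart, which holds for each result here.

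Of 7 tested pericyte and smooth muscle genes of 9, 2 exceeded 1 FPKM in bone libraries only. Of the 7, 5 were higher in bone and 1 in condylar cartilage, beside 21.9% and 21.4% of all genes tested. The condylar share was near that of all genes. The exception was *Cspg4* (NG2), a membrane chondroitin sulfate proteoglycan of pericytes, at 56.6, 46.8 and 71.7 normalized CPM in bone and 1184, 1029 and 1550.4 in condylar cartilage (-4.42, SE 0.20, adjusted p = 2.72e-08). Other pericyte genes lay on the opposite side, with *Rgs5* at 3.52 and *Abcc9* at 4.88.

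Skeletal muscle genes passed in 0 of 11 tested members of 13 with limma, beside 43.3% of all genes tested, and in 0 with edgeR and DESeq2. A single member (1 of 11) had an unadjusted p below 0.05, and their summed level differed more within a tissue than between tissues. The sums were 994, 918 and 172 normalized CPM in bone and 19.7, 308 and 641 in condylar cartilage. *Ttn*, the giant sarcomere protein, was at 664, 607 and 132 in bone and 11.0, 238 and 459.9 in condylar cartilage (1.84, SE 1.04, adjusted p = 0.177). Without bone replicate 3, 9 members were higher in bone, and without condylar replicate 3, 2 were. With sample quality weights 6 passed, and with library totals alone 3. Bone replicate 3 is also the bone library with the lowest mitochondrial share and the highest *Col1a1*, and the part of these in the results was not tested.

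Among the remaining tissues, epithelial genes summed to 3.64 to 4.92 in bone and 0.617 to 1.43 in condylar cartilage. *Krt14* had 0 fragments in all 6 libraries and none of the 8 members was tested. Tooth germ genes summed to 12.8 to 28.2 in bone and 0 in condylar cartilage, nearly all of it *Ambn* (ameloblastin, an enamel matrix protein), with 149, 154 and 385 fragments in bone and 0 in condylar cartilage, at least 179-fold higher in bone. *Amelx*, *Enam*, *Dspp* and *Amtn* were not tested.

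**Figure D3:**
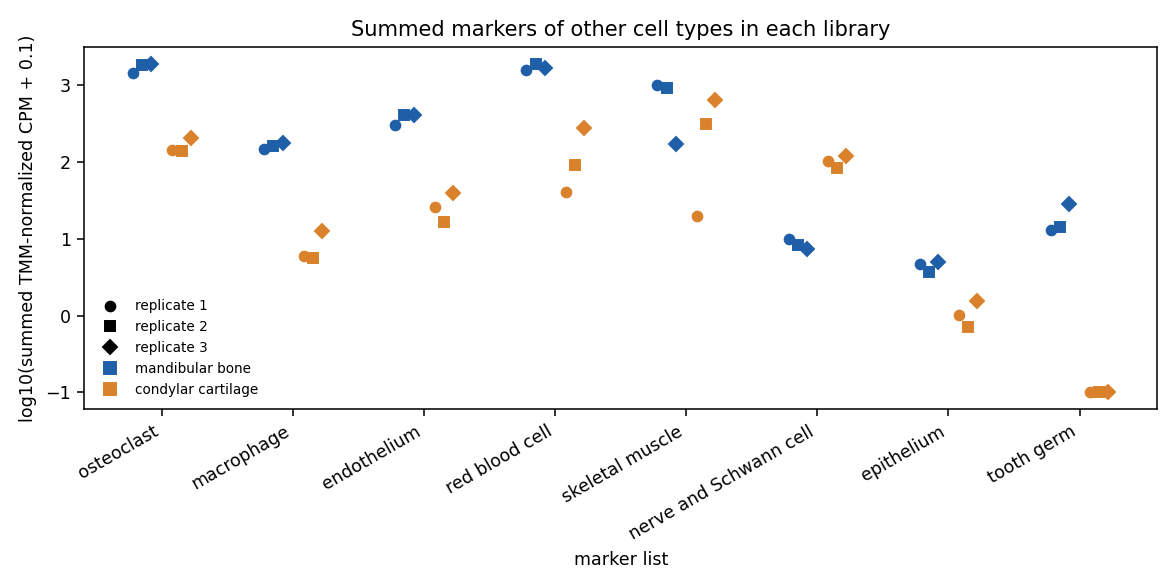
Summed normalized CPM (log10 scale, 0.1 added) of the marker lists of 8 other cell types and tissues in each library, with marker shapes for replicates 1 to 3. Osteoclast, macrophage, endothelial and red blood cell sums separate bone from condylar cartilage, and skeletal muscle sums overlap (172 to 994 in bone, 19.7 to 641 in condylar cartilage). Nerve and Schwann cell sums are higher in condylar cartilage, mostly through *Mbp* and *S100b*.

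On the condylar side, all 8 tested chondrocyte transcription factors of 9 were higher in condylar cartilage, beside 21.4% of all genes tested. The median was -3.51, and 3 of the 8 exceeded 1 FPKM in condylar libraries only. *Sox9* (chr11:112782224-112787760), which is required for chondrocyte fate and drives *Col2a1* and *Acan*, was at 21.1, 18.7 and 25.3 normalized CPM in bone and 426, 486 and 497 in condylar cartilage (-4.44, SE 0.17, adjusted p = 6.3e-09). Its partners *Sox5* and *Sox6* were higher by 4.58 and 2.16 on the log2 scale. *Trps1*, a zinc finger repressor of the growth plate, was at 190.0, 176 and 272 against 1229, 1279 and 1251. *Runx3*, the *Runx2* relative that shares its role in chondrocyte maturation, was at 17.7, 13.9 and 16.9 against 59.5, 58.9 and 61.1 (-1.89, SE 0.17, adjusted p = 4.27e-06), so a RUNX gene did separate the tissues where *Runx2* did not.

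The forkhead genes of hypertrophic differentiation were nearly or wholly absent from bone. *Foxa2* was at 5.91, 5.35 and 9.79 normalized CPM in condylar cartilage and had 0 fragments in bone, at least 88.1-fold higher in condylar cartilage. *Foxa3* had 742 fragments in condylar cartilage and 1 in bone, a ratio of 952 (counting interval 170 to 37671).

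All 7 cartilage collagens were higher in condylar cartilage, beside 21.4% of all genes tested, with a median of -7.34. Of the 7, 2 exceeded 1 FPKM in condylar libraries only. The partners of type II collagen differed among themselves. *Col9a1* was at 1.05, 0.267 and 1.16 normalized CPM in bone and 1315, 1228 and 949 in condylar cartilage (-10.55, SE 0.53, adjusted p = 4.61e-08), and *Col9a3*, another chain of the same fibril-associated collagen, differed by -11.02 (SE 0.54). *Col11a1*, a chain of the fibril-nucleating type XI collagen, was at 1999, 1596 and 2649 in bone and 9058, 8345 and 8022 in condylar cartilage (-2.06, SE 0.20, adjusted p = 6.62e-06). Type IX chains were close to absent from bone, and type XI chains were lower there but abundant.

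All 11 tested members of the 13 other cartilage matrix genes were higher in condylar cartilage, with a median of -8.07. Of the 11, 7 exceeded 1 FPKM in condylar libraries only, so this count is largely fixed by the filter and nothing is read from it. *Acan* (chr7:79053483-79115099), the aggregating proteoglycan that holds water in cartilage, was at 8.24, 4.53 and 5.54 normalized CPM in bone and 4228, 3866 and 6122 in condylar cartilage (-9.60, SE 0.28, adjusted p = 1.37e-09). *Hapln1* (chr13:89540636-89611832), the link protein that fixes aggrecan to hyaluronan, was at 53.5, 39.0 and 42.5 against 10855, 10326 and 9587. With a difference of -7.84 (SE 0.17, adjusted p = 1.01e-10) it had the smallest p-value of all genes tested. *Comp* (chr8:70373548-70382065), a pentameric protein that binds collagens, was at 0.162, 0.178 and 0.137 against 583, 549 and 666 (-11.57, SE 0.61, adjusted p = 6.87e-08).

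Several matrix genes were at the limit of detection in bone. *Matn1* (chr4:130944385-130955475), a filament-forming cartilage protein, had 4 fragments in bone and 4612 in condylar cartilage (-10.44, SE 0.79). *Cnmd* (chondromodulin), which keeps cartilage free of vessels, had 5 and 8136 (-10.66, SE 0.79). *Snorc*, a membrane proteoglycan of chondrocytes, had 0 and 1278, at least 547-fold higher in condylar cartilage, and *Epyc*, a small proteoglycan of cartilage, 0 and 158, at least 67.6-fold higher. *Chad*, a leucine-rich cell-binding protein, was the least separated, at 4.69, 4.62 and 8.0 normalized CPM in bone and 23.4, 25.1 and 67.7 in condylar cartilage.

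The 12 largest differences on the condylar side included 8 members of these lists (*Comp*, *Col9a3*, *Cnmd*, *Col9a1*, *Matn1*, *Col10a1*, *Snorc*, *Acan*). The other 4 were *Gjc3*, *Itih5l-ps*, *Clec3a* and *Lipg*, each with 0 fragments in bone. *Gjc3*, a connexin known from myelinating glia, was at 105, 107 and 81.0 normalized CPM in condylar cartilage, at least 1255-fold higher there. *Itih5l-ps*, a pseudogene by its symbol, was at 102, 93.0 and 73.1, at least 1151-fold higher. *Clec3a*, a secreted lectin of cartilage, was at least 573-fold higher, and *Lipg*, the endothelial lipase, was at 23.5, 38.2 and 75.7 normalized CPM and at least 564-fold higher.

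Nerve and Schwann cell genes lay on the condylar side in 3 of 4 tested members of 7, beside 21.4% of all genes tested. Of the 4, 2 were tested through condylar libraries alone. The sums were 7.18 to 9.78 normalized CPM in bone and 84.1 to 119 in condylar cartilage. *Mbp* and *S100b* made up most of the condylar sums. *Mbp*, a myelin protein also made outside glia, was at 1.37, 2.31 and 3.01 against 55.5, 35.1 and 84.5 (-4.64, SE 0.51, adjusted p = 1.86e-05). *S100b*, a calcium-binding protein of glia and of chondrocytes, was at 3.39, 1.42 and 1.16 against 32.5, 36.5 and 18.2 and differed by -3.97. *Tubb3* did not pass (0.30, adjusted p = 0.669). *Sox10*, the defining factor of Schwann cells, had 9, 1 and 0 fragments in bone and 23, 34 and 49 in condylar cartilage and was not tested.

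Of 6 hypertrophic cartilage genes, 4 were higher in condylar cartilage and 1 in bone, beside 21.4% and 21.9% of all genes tested. The bone share was near that of all genes, and 1 of the 6 exceeded 1 FPKM in condylar libraries only. *Col10a1* (chr10:34389981-34397085), the network collagen of hypertrophic chondrocytes, was at 2.67, 1.6 and 2.94 normalized CPM in bone and 2671, 2576 and 5124 in condylar cartilage (-10.41, SE 0.46, adjusted p = 2.37e-08). *Ihh*, the hedgehog ligand of prehypertrophic cells, was at 1.45, 1.33 and 1.85 against 81.1, 79.7 and 137 (-5.92, SE 0.46, adjusted p = 1.17e-06). Replicate 3 was the highest condylar library for both, and it was also the highest for *Col1a1* and *Alpl*. *Panx3*, a channel protein of hypertrophic cells and osteoblasts, differed by -1.97 and *Pth1r*, the receptor of PTHrP, by -2.56.

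*Mmp13* (chr9:7272514-7283333), the collagenase of terminal chondrocytes and of osteoblasts, lay on the other side. It was at 1636, 1754 and 1342 normalized CPM in bone and 15.6, 8.12 and 23.1 in condylar cartilage (6.78, SE 0.29, adjusted p = 1.75e-08). The condylar libraries thus held *Col10a1* with little *Mmp13*. *Vegfa*, the vessel growth factor, was at 38.3, 29.9 and 36.6 in bone and 19.8, 32.6 and 34.0 in condylar cartilage, with overlap (0.32, adjusted p = 0.26).

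**Figure D4:**
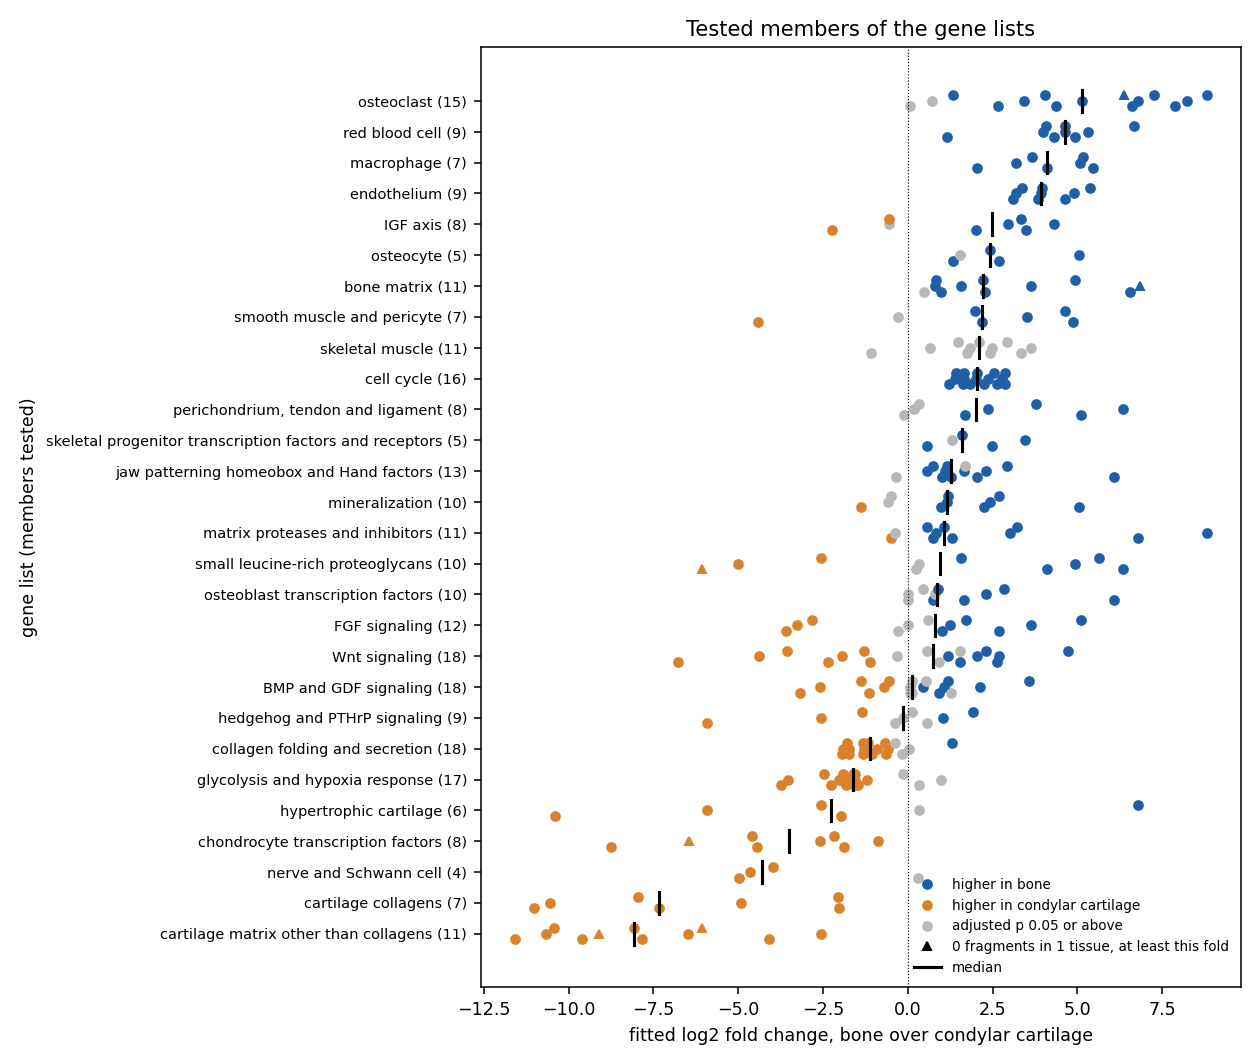
Fitted log2 difference (bone minus condylar cartilage) of each tested member of each gene list with more than 1 tested member, where points are genes, triangles are genes with 0 fragments in 1 tissue placed at their bound, and black lines are medians. Osteoclast genes (median 5.13) and red blood cell genes (4.65) lie farthest to the bone side, and other cartilage matrix genes (-8.07) and cartilage collagens (-7.34) farthest to the condylar side. Of their tested members, 7 of 15, 2 of 9, 7 of 11 and 2 of 7 exceeded 1 FPKM only in the higher tissue. The order of the lists is thus partly set by the filter.

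Hedgehog and PTHrP signaling genes were split, with 2 of 9 tested members of 11 higher in bone and 3 higher in condylar cartilage, beside 21.9% and 21.4% of all genes tested. The ligand *Ihh*, the receptor *Pth1r* and *Ptch1*, a hedgehog receptor and target, were higher in condylar cartilage, *Ptch1* at 166 ± 20.4 normalized CPM in bone and 428 ± 90.9 in condylar cartilage (mean ± SD, n = 3) (-1.35, SE 0.18, adjusted p = 7.35e-05). The transcription factors *Gli1* and *Gli2* were higher in bone, by 1.03 and 1.92. *Gli1*, also a target of the pathway, overlapped between the tissues and its adjusted p of 0.0155 became 0.0591, 0.0782 and 0.068 without bone replicate 1, condylar replicate 1 and condylar replicate 2, with the genes kept over 6 libraries. *Pthlh*, which encodes PTHrP, had 8 to 18 fragments in bone and 0, 0 and 14 in condylar cartilage and was not tested.

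The FGF receptors were divided between the tissues. *Fgfr2* was at 336, 246 and 233 normalized CPM in bone and 126, 123 and 149 in condylar cartilage (1.02, SE 0.17, adjusted p = 0.000464). *Fgfr3* (chr5:33721724-33737068), which restrains chondrocyte growth, was at 32.5, 27.1 and 45.9 against 448, 437 and 377 (-3.60, SE 0.19, adjusted p = 7.72e-08). *Fgfr1* was at 176, 131 and 233 against 171, 153 and 378, with overlap (-0.29, adjusted p = 0.476). *Fgfr4* was also higher in condylar cartilage (-2.82). Among *Fgfr1*, *Fgfr2* and *Fgfr3*, per kilobase of exon, *Fgfr2* (52.1 normalized CPM) had the highest mean in bone, before *Fgfr1* (32.8). In condylar cartilage *Fgfr3* (92.4) was the highest of the same genes, before *Fgfr1* (42.6) and *Fgfr2* (25.5). These orders are of means, and *Fgfr1* and *Fgfr2* differ in exon length.

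In the whole FGF list, 6 of 12 tested members of 17 were higher in bone and 3 in condylar cartilage, beside 21.9% and 21.4% of all genes tested, so that the condylar share was near that of all genes. *Fgfrl1*, a receptor without a kinase, was at 8.81, 11.6 and 13.1 normalized CPM in bone and 124, 97.2 and 102 in condylar cartilage (-3.28, SE 0.20, adjusted p = 2.44e-07). On the bone side lay the ligand *Fgf7* (5.11) and the pathway's targets and inhibitors *Spry1* (3.62), *Dusp6* (2.68), *Spry4* (1.70) and *Etv5* (1.25). Without condylar replicate 2, *Etv5* differed by 0.67 and did not pass (adjusted p = 0.0583). *Spry2* (0.60) did not pass, and passed without bone replicate 3 (0.96, adjusted p = 0.0478). *Fgf2*, *Fgf9*, *Fgf10* and *Fgf18* were too low to be tested, with 8 to 14 fragments of *Fgf18* in bone and 1 to 6 in condylar cartilage. With genes above 5 FPKM alone, 2 members were higher in bone.

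Of the Wnt signaling genes, 7 of 18 tested members of 20 were higher in bone and 7 in condylar cartilage, where all genes tested were also split almost evenly (21.9% and 21.4%). The ligands that passed were all higher in condylar cartilage: *Wnt4* at 2.34, 2.84 and 3.08 normalized CPM in bone and 63.4, 57.5 and 53.9 in condylar cartilage (-4.38, SE 0.27, adjusted p = 2.22e-07), *Wnt5b* (-3.55), *Wnt10b* (-1.28) and *Wnt11*. *Wnt11* had 270 fragments in condylar cartilage and 2 in bone, a ratio of 173 (counting interval 47.5 to 1438). *Axin2*, a feedback target of the canonical pathway, was also higher there (-1.95, SE 0.50, adjusted p = 0.00707), with 21.7, 23.0 and 4.24 in bone and 37.8, 39.7 and 72.9 in condylar cartilage. Its call was lost with DESeq2 (adjusted p = 0.0622) and with a trended, robust prior (0.0817). Other targets of the pathway on the list lay on the bone side, *Nkd2* (2.30), *Tcf7* (1.53), which also encodes a transcription factor of the pathway, and *Nkd1* (1.19). *Nkd1* did not pass with 18 libraries in the fit (0.136 and 0.146), or without bone replicate 2 (0.0583), condylar replicate 1 (0.115) or condylar replicate 2 (0.073). The secreted antagonists were divided, with *Dkk1* (2.69), *Dkk2* (2.05), *Dkk3* (2.64) and *Sfrp2* (4.74) higher in bone and *Frzb* (-2.36) and *Sfrp1* (-1.11) higher in condylar cartilage. *Dkk2* did not pass with edgeR (adjusted p = 0.0774), or without condylar replicate 1 (0.0607) or condylar replicate 2 (0.0619).

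Of the BMP and GDF genes, 6 of 18 tested members of 23 were higher in bone and 6 in condylar cartilage, beside 21.9% and 21.4% of all genes tested. *Bmp3*, an inhibitory ligand abundant in bone, was at 124, 72.1 and 125 normalized CPM in bone and 10.2, 6.78 and 9.46 in condylar cartilage (3.57, SE 0.29, adjusted p = 2.05e-06). *Bmp6*, a ligand of maturing chondrocytes, was at 25.6, 18 and 20.6 against 175, 181 and 226 (-3.18, SE 0.18, adjusted p = 1.59e-07). *Bmp7* (-1.38) and the antagonist *Nog* (-2.59) were also higher in condylar cartilage. Targets and feedback genes of the pathway lay on both sides. *Id2* (1.08), *Id3* (1.18) and the inhibitor *Smad6* (2.12) were higher in bone, *Id1* (0.14) did not pass, with a sign that changed without bone replicate 3, and the inhibitors *Smad7* (-0.71) and *Bambi* (-0.55) were higher in condylar cartilage. *Smad7* did not pass without bone replicate 1, 2 or 3 or condylar replicate 3 (adjusted p from 0.055 to 0.121), nor did *Bambi* (0.0573 to 0.0995), which also lost its call with 12 libraries in the fit (0.0963) and with 18 (0.162 and 0.146). With library totals alone neither passed (0.0929 and 0.13). *Bmp4* (0.55), an early ligand of skeletal condensation, did not pass, and passed without condylar replicate 3 (adjusted p = 0.0129).

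In the IGF axis, 5 of 8 tested members of 10 were higher in bone and 2 in condylar cartilage, beside 21.9% and 21.4% of all genes tested, so that the condylar share was near that of all genes. The receptor *Igf1r* was at 43.2, 34.2 and 42.0 normalized CPM in bone and 211, 189.8 and 162 in condylar cartilage (-2.23, SE 0.17, adjusted p = 9e-07). *Igf2*, the fetal ligand, passed narrowly on the same side (-0.56, adjusted p = 0.0285) and did not pass without bone replicate 2 or 3 or condylar replicate 2 or 3. The binding proteins *Igfbp2* (2.02), *Igfbp3* (3.33), *Igfbp4* (3.48) and *Igfbp5* lay on the bone side. *Igfbp2* lost its call with 18 libraries in the fit (adjusted p = 0.259 and 0.248) and without condylar replicate 1 (0.0804). *Igfbp5*, the main one of bone, was at 1312, 1153 and 2098 against 172, 162 and 234 (2.97, SE 0.22, adjusted p = 9.32e-07). *Igf1*, the other ligand of the axis, was at 176, 133 and 89.9 in bone and 0.637, 8.53 and 64.7 in condylar cartilage, so that condylar replicate 3 stood near bone. Its difference (4.31, adjusted p = 0.00264) was 2.44 with edgeR and 2.43 with DESeq2 and did not pass there (adjusted p = 0.051 and 0.165). With a trended, robust prior it did not pass either (adjusted p = 0.0914).

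The small leucine-rich proteoglycans, which bind collagen fibrils, were higher in bone in 5 of 10 tested members of 11 and in condylar cartilage in 3, beside 21.9% and 21.4% of all genes tested. *Dcn* (decorin) was at 471, 493 and 531 normalized CPM in bone and 24.3, 22.9 and 44.4 in condylar cartilage (4.10, SE 0.22, adjusted p = 7.79e-08). *Prelp* was at 18.7, 18.9 and 24.9 against 644, 683 and 686 (-5.01, SE 0.17, adjusted p = 3.11e-09). *Lum* (lumican), at 613, 625 and 457 against 491, 454 and 481, did not pass (0.24, adjusted p = 0.246), and passed without bone replicate 3 (0.39, adjusted p = 0.0307). *Aspn* (6.36) and *Ogn* (5.63) were higher in bone, with their lowest bone library in replicate 3.

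Of 8 tested genes of perichondrium, tendon and ligament of 13, 5 were higher in bone and 0 in condylar cartilage. Over all genes tested the shares were 21.9% and 21.4%. Without condylar replicate 1, 3 were higher in bone. Of the 8, 1 exceeded 1 FPKM in bone libraries only. *Postn* (periostin), a matrix protein of periosteum, was at 1454, 1528 and 882 normalized CPM in bone and 179, 231 and 357 in condylar cartilage (2.36, SE 0.26, adjusted p = 1.97e-05), and *Tnc*, a matrix glycoprotein of the same layer, differed by 1.68. *Tnmd*, a tendon membrane protein, had 210 fragments against 3, a ratio of 54.5 (counting interval 18.4 to 267), and did not pass without condylar replicate 1 (adjusted p = 0.0562). *Scx*, the defining tendon factor, had 13, 18 and 6 fragments in bone and 1, 5 and 4 in condylar cartilage, and *Prg4* (lubricin), which marks joint surfaces, had 8 to 26 and 7 to 13, both too few to be tested.

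Skeletal progenitor genes were higher in bone in 4 of 5 tested members of 8, beside 21.9% of all genes tested. *Pdgfra*, a receptor of mesenchymal progenitors, was at 234, 240.3 and 420.3 normalized CPM in bone and 21.7, 16.1 and 51.9 in condylar cartilage (3.46, SE 0.35, adjusted p = 9.74e-06). Of the homeobox genes that pattern the jaw, 11 of 13 tested members of 17 were higher in bone and 0 in condylar cartilage. Over all genes tested the shares were 21.9% and 21.4%. The median was 1.27, and 6 of the 13 exceeded 1 FPKM in bone libraries only. Those higher in bone included *Lhx8* (2.94), *Dlx6* (2.31) and *Lhx6* (2.06). *Barx1*, at 23.8, 15.2 and 13.7 against 19.7, 22.1 and 23.0, did not pass. The count was 7 without bone replicate 1 or condylar replicate 2, and 3 with genes above 5 FPKM alone, since few of these genes reach that level.

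Of 18 collagen folding and secretion genes, 14 were higher in condylar cartilage and 1 in bone, beside 21.4% and 21.9% of all genes tested. The median was -1.12, and with library totals alone 11 were higher in condylar cartilage. *P4ha2*, a prolyl hydroxylase of procollagen, was at 103, 138 and 145 normalized CPM in bone and 535, 544 and 404 in condylar cartilage (-1.94, SE 0.18, adjusted p = 4.94e-06). *Plod2*, a lysyl hydroxylase, differed by -1.92 and the chaperone *Hspa5* by -1.34. The related stress-activated transcription factors of secretion were divided. *Creb3l1*, which drives type I collagen in osteoblasts, was higher in bone (1.30, SE 0.25, adjusted p = 0.00116), and *Creb3l2*, which acts in chondrocytes, was higher in condylar cartilage (-1.78, SE 0.17, adjusted p = 6.47e-06).

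Of 11 matrix proteases and inhibitors, 9 were higher in bone and 1 in condylar cartilage, beside 21.9% and 21.4% of all genes tested. Of the 11, 3 exceeded 1 FPKM in bone libraries only. Besides *Mmp9* and *Mmp13*, *Mmp14*, a membrane collagenase, was at 155, 147 and 183 normalized CPM in bone and 68.7, 69.2 and 93.3 in condylar cartilage (1.08, SE 0.17, adjusted p = 0.000265). The aggrecanases *Adamts4* (3.22) and *Adamts5* (3.01) were also higher in bone. *Timp3*, a protease inhibitor bound to matrix, passed on the condylar side (-0.50, adjusted p = 0.0436) and did not pass with edgeR (0.0597), or without bone replicate 2, bone replicate 3, condylar replicate 1 or condylar replicate 3.

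Of 17 tested glycolysis and hypoxia response genes of 19, 14 were higher in condylar cartilage and 0 in bone, with a median of -1.61. Over all genes tested these shares were 21.4% and 21.9%. Cartilage has no vessels, and its cells rely on glycolysis. *Slc2a1*, a glucose transporter, was at 29.7, 40.0 and 28.9 normalized CPM in bone and 386, 414 and 321 in condylar cartilage (-3.52, SE 0.18, adjusted p = 4.61e-08). *Bnip3*, a mitophagy receptor induced by low oxygen, was at 23.5, 22.5 and 14.6 against 324, 308 and 183 (-3.75, SE 0.26, adjusted p = 4.93e-07). *Ldha*, the enzyme that makes lactate, differed by -1.77 and *Pgk1*, a glycolytic kinase, by -2.47. Other hypoxia targets did not follow, with *Vegfa* at 0.32 and *Ankrd37* at 0.98, neither of which passed, and *Ankrd37* passed on the bone side with library totals alone and without bone replicate 1 (adjusted p = 0.0428).

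Cell cycle genes were higher in bone in 16 of 16 members, beside 21.9% of all genes tested, with a median of 2.03. *Mki67*, a protein of cycling cells, was at 319, 324 and 324 normalized CPM in bone and 30.9, 38.9 and 74.7 in condylar cartilage (2.86, SE 0.25, adjusted p = 3.28e-06). *Top2a*, the topoisomerase of mitosis, was at 177, 194 and 160.4 against 23.6, 29.4 and 40.8 (2.54, SE 0.20, adjusted p = 1.22e-06). The replication helicase genes *Mcm5* (2.77) and *Mcm6* (1.23) were higher in bone as well. Bone libraries varied little for *Mki67*, and the highest condylar library was replicate 3. Osteoclast, macrophage, endothelial and red blood cell sums move with the same contrast, and their part in the cell cycle difference was not tested.

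The same comparison was made in the *Fgfr2*+/S252W embryos, which share no library with the *Fgfr2*+/+ embryos. There 4875 of 12348 genes differed between bone and condylar cartilage (39.5%), 2640 higher in bone and 2235 higher in condylar cartilage. Without bone replicate 1 there, 2899 genes passed, 1414 higher in bone and 1485 in condylar cartilage. Without bone replicate 2 it was 2899 (1419 and 1480), and without bone replicate 3 it was 3222 (1608 and 1614), so that the excess on the bone side did not hold in these fits, which tested fewer genes. Of 5204 genes called in *Fgfr2*+/+ and tested in *Fgfr2*+/S252W, 5141 (98.8%) had the same direction and 3923 (75.4%) were called the same way. In turn, 83.3% of 4707 genes called in *Fgfr2*+/S252W and tested in *Fgfr2*+/+ were called the same way there. *Runx2* again did not pass (0.08, adjusted p = 0.767), and *Hapln1* (-7.23), *Fgfr3* (-3.16), *Mmp13* (5.83), *Ctsk* (5.66), *Smpd3* (-1.35), *Cspg4* (-3.90) and *Mki67* (2.42) lay on the same side as in *Fgfr2*+/+.

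*Ibsp*, a weak call in *Fgfr2*+/+, differed by 0.09 in *Fgfr2*+/S252W (adjusted p = 0.894). *Alpl* differed by 1.12, against 0.98 in *Fgfr2*+/+, and missed the threshold (adjusted p = 0.0603). Conversely, *Nfatc1* (0.86, adjusted p = 0.00455) and *Clcn7* (1.85, adjusted p = 9.13e-05) were higher in bone in *Fgfr2*+/S252W, where all 15 osteoclast genes passed. A pair of genes named after their values were seen, *Ccnd1* and *Cd55*, were called in opposite directions. *Ccnd1*, a cyclin of cell cycle entry, differed by 0.81 in *Fgfr2*+/+ (adjusted p = 0.0268) and by -0.56 in *Fgfr2*+/S252W (adjusted p = 0.0229), and *Cd55*, a complement regulator, by 0.76 and -0.72. Both calls in *Fgfr2*+/+ were weak. *Ccnd1* lost its call without bone replicate 1 or 2 or condylar replicate 1 or 2 (adjusted p from 0.0597 to 0.151). *Cd55* lost it without bone replicate 3 or condylar replicate 1 or 2 (0.067 to 0.117), with no filter (0.0583) and with 18 libraries in the fit (0.21 and 0.22).

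The difference between these tissue effects was tested in 1 fit of the 12 libraries. Of 12138 genes, 0 passed with limma and 0 with edgeR, and 17 passed with DESeq2. With limma 632 had an unadjusted p below 0.05 in limma, and the smallest adjusted p was 0.372. For *Ccnd1* and *Cd55* the adjusted p of the difference was 0.719, for *Ibsp* 0.931, for *Nfatc1* 0.856 and for *Clcn7* 0.853. Without *Fgfr2*+/+ bone replicate 3, 3 genes passed with limma. Limma and edgeR on all 12 libraries therefore gave no gene whose tissue difference differed between the genotypes, whereas DESeq2 did.

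**Figure D5:**
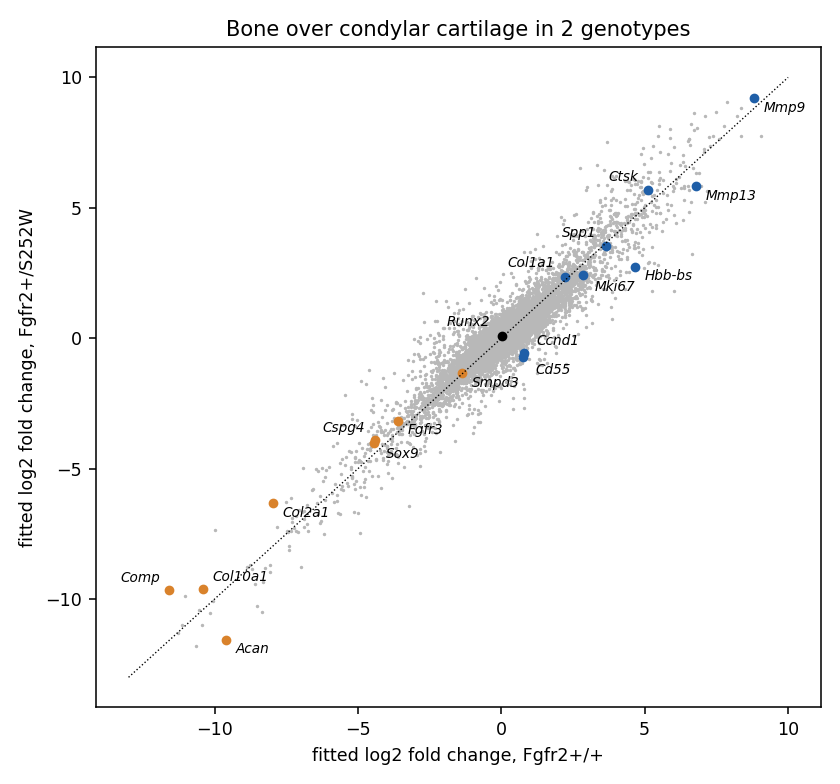
Fitted log2 difference (bone minus condylar cartilage) of each gene in *Fgfr2*+/+ embryos on the x axis and in *Fgfr2*+/S252W embryos on the y axis, with a dotted line of equality and 18 genes labelled. Of the 5204 genes called in *Fgfr2*+/+ and tested in both, 5141 have the same sign, and *Runx2* lies near 0 on both axes.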

How the data were processed

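Laser-captured RNA was amplified with NuGEN Ovation v2, and paired ends were read. The authors aligned the reads to mm10 and assigned fragments to Ensembl genes with featureCounts 1.5.0-p1, without strand. The submitters' processing notes name cutadapt, STAR, featureCounts, limma and RSEM. The deposited values are raw counts of fragments on 38243 genes. Fragments with several alignments, or over several genes, were left uncounted, so paralogs are uncertain, and a gene cannot be told apart from an overlapping antisense gene. Whether duplicates were removed is not given in the sources used here.

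Groups were taken from the labels. The paper's steps were run in R 4.3.3 with limma 3.58.1 and edgeR 4.0.16 on the 6 *Fgfr2*+/+ libraries, whereas the paper's design matrix held all its sample groups. Genes had to exceed 1 FPKM in 50% of libraries or more, and TMM, voom, lmFit with 1 mean per group, eBayes and Benjamini-Hochberg adjustment at 0.05 followed, with 4 residual degrees of freedom and a prior of 8.06. The same fit was made in 6 *Fgfr2*+/S252W libraries, and the interaction in 12. Tests are two-sided. No pair of libraries of the same group agreed within counting noise (lowest chi-square per degree of freedom 8.14). The procedure was tested on simulated data, where smaller changes were recovered less often than larger ones. The simulation changed far fewer genes than differed here, and by less than the largest differences here. It therefore does not cover a contrast of this size.

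Genes are named by a rule: the 12 largest called differences a side without overlap and with a mean of at least 10 normalized CPM in the higher tissue, clone-based names left out, and from each list its defining members and the 2 largest and 2 smallest differences. Other members are named to describe a list, and some genes that the rule names are not reported here. The comparison, the lists and the tests were chosen with earlier results of these data known, and counts of list members are descriptions. Genes with 0 fragments in a tissue are given as at least a fold against 3 fragments over the group, and genes with 1 to 3 with a 95% exact counting interval.

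The alternatives tried were DESeq2 1.42.0 and edgeR's quasi-likelihood test, 12 or 18 libraries in the fit, other filters, scaling factors and weights, removal of a loess curve against gene length (span 0.3), the replicate number as a block, and leaving out each library. Leaving out a library with the genes kept over 6 libraries was added after seeing the data, because with 5 libraries the 50% filter drops genes of the tissue with 2.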

Additional observations from a re-analysis of the deposited data

How the results depend on the processing

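The count of 5442 genes in *Fgfr2*+/+ stayed within 1.5 times under all alternatives except genes above 5 FPKM, where 3370 of 6788 tested genes passed. Leaving out each library in turn gave 3783 to 5135 genes, and 4472 to 5475 with the genes kept over 6 libraries. With 18 libraries in the fit, 4288 or 4989 genes passed. Whether bone and condylar libraries with the same number came from 1 embryo is not given in the sources used here, and their deviations from the group means correlated at -0.0931, 0.0211 and -0.0884 across genes, with 0 of 6 libraries closest to its own number. With that number as a replicate block, 5438 genes passed, 5213 of them called without it, and 4585 in *Fgfr2*+/S252W. Among the genes named, *Sp7*, *Dlx3*, *Ifitm5* and *Clcn7* passed with the block (adjusted p = 0.0203, 0.00755, 0.0259 and 0.0375) and *Dkk2*, *Nkd1* and *Timp3* did not (0.0626, 0.0568 and 0.0557), and no other call changed. In *Fgfr2*+/S252W, leaving out each library gave 2899 to 5455 genes, the lowest without a bone library. The interaction gave 17 genes with DESeq2, 0 with the replicate block and 0 to 3 with each library left out, the 3 being without *Fgfr2*+/+ bone replicate 3. With the curve against gene length removed, 2587 genes were higher in bone and 3019 in condylar cartilage, so that 46.1% of calls lay on the bone side. Genes that did not pass changed sign. *Runx2* differed by -0.012 with edgeR's filterByExpr, by -0.11 with the length curve removed and by -0.061 to 0.21 with each library left out. *Nfatc1* differed by -0.052 with the length curve removed and by -0.084 to 0.24 with each library left out, *Fgfr1* by -0.57 to 0.12 and *Id1* by -0.0083 to 0.38. Over 170 named genes and all alternatives, 4361 of 4548 values kept their direction and their side of the threshold, 118 no longer passed and 53 came to pass. Few fragments limit the precision of genes near 0 in 1 tissue.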

Other observations

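The gene groups in this section were chosen after the data were seen, and their counts are descriptions beside the 21.9% and 21.4% of all tested genes on the bone and condylar side. Genes that supply, build and sulfate the glycosaminoglycan chains of cartilage proteoglycans were higher in condylar cartilage in 18 of 24 tested members of 25 and in bone in 3, with a median log2 difference (bone minus condylar cartilage) of -1.37. *Xylt1*, which starts the chain on the core protein, was at 6.43 ± 2.68 normalized CPM in bone and 219.8 ± 30 in condylar cartilage (mean ± SD, n = 3) and differed by -5.12 (SE 0.26, adjusted p = 5.85e-08, limma). *Slc35d1*, the carrier of nucleotide sugars, was at 14.1, 12 and 13 against 369, 380.4 and 342. The sulfate transporter *Slc26a2* (-3.54) and *Papss2* (-3.59), which activates sulfate, lay on the same side. *Ust* (2.09), a uronyl sulfotransferase, was higher in bone.

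Myelin-associated genes were higher in condylar cartilage in 9 of 10 tested members of 15, with a median of -6.54, or -6.11 with genes at 0 fragments in bone placed at their bound. *Ncmap* had 2 fragments in bone and 1146 in condylar cartilage, where it was at 42.1, 32.9 and 39.9 normalized CPM, a ratio of 736 (95% exact counting interval 203 to 6081). *Nfasc*, an adhesion molecule of axons and glia, had 4 and 1307 fragments (-8.70, SE 0.77). *Cmtm5* had 0 and 356 fragments, at least 152-fold higher in condylar cartilage. This group shares *Mbp*, *S100b* and *Gjc3* with results of the report, and *Sox10* reached at most 49 fragments in a condylar library. The part of nerve cells in these differences was not tested.

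Replication-dependent histone genes were higher in bone in 28 of 36 tested members of 62 and in condylar cartilage in 0, with a median of 1.88, on the same side as the cell cycle genes. Cytosolic ribosomal protein genes were higher in bone in 53 of 84 tested members of 86, with a median of 0.57, and in 29 of 84 in *Fgfr2*+/S252W. These genes have close paralogs and pseudogenes, so their counts are uncertain. Nuclear genes of oxidative phosphorylation were higher in bone in 7 and in condylar cartilage in 4 of 76 tested members. Subunits of the proton pump of lysosomes and osteoclasts were higher in bone in 8 and in condylar cartilage in 3 of 17 tested members, led by *Atp6v0d2* (7.88), *Tcirg1* (2.66) and *Atp6v1b2* (2.11).

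Semaphorins and their receptors, which guide axons and vessels, were higher in bone in 9 and in condylar cartilage in 5 of 21 tested members of 31. *Sema3a* was at 109, 100.1 and 76.9 normalized CPM in bone and 5.91, 3.60 and 4.73 in condylar cartilage (4.31, SE 0.29, adjusted p = 3.93e-07), and its receptor *Nrp1* was also higher in bone (2.03). *Plxnb1* was at 28.5, 24.2 and 38.9 against 169, 189.8 and 190.3 (-2.60, SE 0.18, adjusted p = 6.31e-07).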
